A study of Canis lupus familiaris with 8 samples.

Results

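Cathepsins are proteases of the lysosome, and NAPSA is napsin A, an aspartic protease of the same compartment. Probe sets were taken for NAPSA and for every gene whose symbol on the platform annotation is CTS followed by 1 capital letter. This gave 8 genes, CTSB, CTSC, CTSF, CTSH, CTSK, CTSS, CTSZ and NAPSA, of 6540 genes named on the array. They had 24 probe sets among 23836 other than array controls. Of the 24, 20 were bright enough to be tested. A further 7 cathepsin symbols of the dog reference, CTSA, CTSD, CTSE, CTSG, CTSO, CTSV and CTSW, were not named on the array, so the family is described here only in part.

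RNA came from frozen anterior mitral valve leaflets, the flaps of tissue that close the valve between left atrium and ventricle, and each dog gave 1 Affymetrix array. The 4 affected dogs had degenerative mitral valve disease, in which the leaflets thicken and no longer close. Affected 1 was a Lhasa apso, affected 3 a Dachshund, and affected 2 and 4 were Miniature poodles, and the 4 control dogs were beagle crosses. Breed and disease therefore cannot be told apart, and the ages, sexes and treatments of the dogs are not given in the labels.

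Most cathepsins are cysteine proteases that are made as inactive precursors, carried to the lysosome by the mannose 6-phosphate pathway and cut to their active form at low pH. Macrophages hold them in large amounts, use CTSS to free class II molecules from the invariant chain, and can secrete them. Outside the cell several members cleave collagen, elastin and proteoglycans, and cystatins hold them in check.

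Genes of leaflet cells and genes of heart muscle were both measured in every array. VIM, COL1A1, COL1A2, COL3A1 and DCN were among 7 measured genes of valve interstitial cells, the fibroblast-like cells of the leaflet. Their summed signal was 96782 to 127118 in affected leaflets and 43821 to 125895 in control leaflets, and the lowest value was that of control 2. Summed signal of 10 cardiac muscle markers was 21634 to 160242 in affected and 42833 to 199461 in control leaflets, with the highest value in control 2. The smallest p of these lists belonged to VIM at 0.53 ± 0.27, POSTN at 1.81 ± 0.94 and COL1A2 at 0.36 ± 0.38, and to RYR2 at -0.96 ± 0.62, MYH7 at -0.65 ± 0.69 and TNNI3 at -0.80 ± 1.02 (log2 difference, SE; limma adjusted p from 0.666 to 0.843). Macrophage markers were named on the array for 16 of 18 listed genes, and all 16 had higher mean signals in affected leaflets. Their summed signal was 23303 to 50349 in affected leaflets and 2250 to 21538 in control leaflets, with control 2 lowest, and all 4 controls were at the floor (a signal of 34.2) for MARCO, a scavenger receptor. Of the 16, 11 had an unadjusted p under 0.05 in limma, beside 4.82% of all genes, and 0 an adjusted one. The 11 include MARCO and FCER1G, an Fc receptor chain with 3 of 4 controls at the floor, and both passed the filter on low values through the affected dogs alone. The smallest p were those of FCER1G at 2.91 ± 0.44 (log2 difference, SE; limma adjusted p = 0.238), the lipopolysaccharide receptor CD14 at 2.09 ± 0.45 and the Fc receptor FCGR1A at 3.53 ± 0.77 (adjusted p = 0.328 for both). The 5 tested endothelial markers also had higher mean signals in affected leaflets, with a summed signal over the list of 14344 to 26558 in affected and 6877 to 11175 in control leaflets. Of these 5, 4 had an unadjusted p under 0.05 in limma, beside 4.82% of all genes, and 0 an adjusted one. ENG differed by 1.27 ± 0.35 (adjusted p = 0.442), NOS3 by 1.46 ± 0.44 (adjusted p = 0.49) and PECAM1 by 1.01 ± 0.34 (adjusted p = 0.545). In a whole tissue, more cells of a type and more RNA per cell cannot be told apart.

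The comparison of affected with control leaflets asks which genes differ in the diseased valve. By the brightest probe set of each gene, 7 of the 8 genes had a higher mean log2 signal in affected leaflets and CTSF had a lower one, though the directions of CTSF and CTSK turned when single dogs were left out. Without control 2 the log2 difference of every gene was lower than with all dogs. CTSB was then at 0.62, CTSC at 1.10, CTSH at 0.95, CTSS at 0.46 and CTSZ at 0.51. NAPSA was at 2.08, CTSK at -0.23 and CTSF at -0.45. With all dogs the median log2 difference over the 8 genes was 1.07, against -0.0059 over all 5438 genes tested. CTSB, CTSC, CTSH and NAPSA had an unadjusted p under 0.05 in limma, which is 4 of 8 genes where 4.82% of all genes were higher at that level, and 49.4% of all genes had a difference above 0. Without NAPSA, whose probe set passed the filter on dim probe sets mainly through the affected dogs, these were 3 of 7 genes with a median of 0.80. No member passed an adjusted p of 0.05 in limma over the 14705 tested probe sets, where the smallest adjusted p of a member was 0.33 (NAPSA), so none of the differences below is called. The same fit called 0% of all probe sets higher and 0% lower.

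Counted by probe set, 15 of the 20 tested were higher in affected leaflets, beside 50.5% of all tested probe sets, and 5 were lower. At an unadjusted p under 0.05 in limma 5 were higher, beside 4.02% of all tested probe sets, and 0 were lower, beside 3.81%. The 5 were 1 probe set each of CTSB, CTSC, CTSH, CTSK and NAPSA. Probe sets of 1 gene carry the same gene name and share the same dogs, so they do not count as separate evidence. Whether they match the same transcripts was not checked. The affected dogs lay wholly above the controls for 2 of the 20, beside 2.35% of all tested probe sets, and wholly below them for 0, beside 2.31%. The 2 were the brightest probe sets of CTSB and NAPSA, which makes 2 of 8 genes beside 2.68% of all genes. That of NAPSA passed the filter on dim probe sets mainly through the affected dogs and had 2 controls at the floor. Without NAPSA, CTSB was the only gene of 7 with separate groups. Probe sets of CTSB, CTSC, CTSH and CTSK then remained at an unadjusted p under 0.05 in limma.

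**Figure D1:**
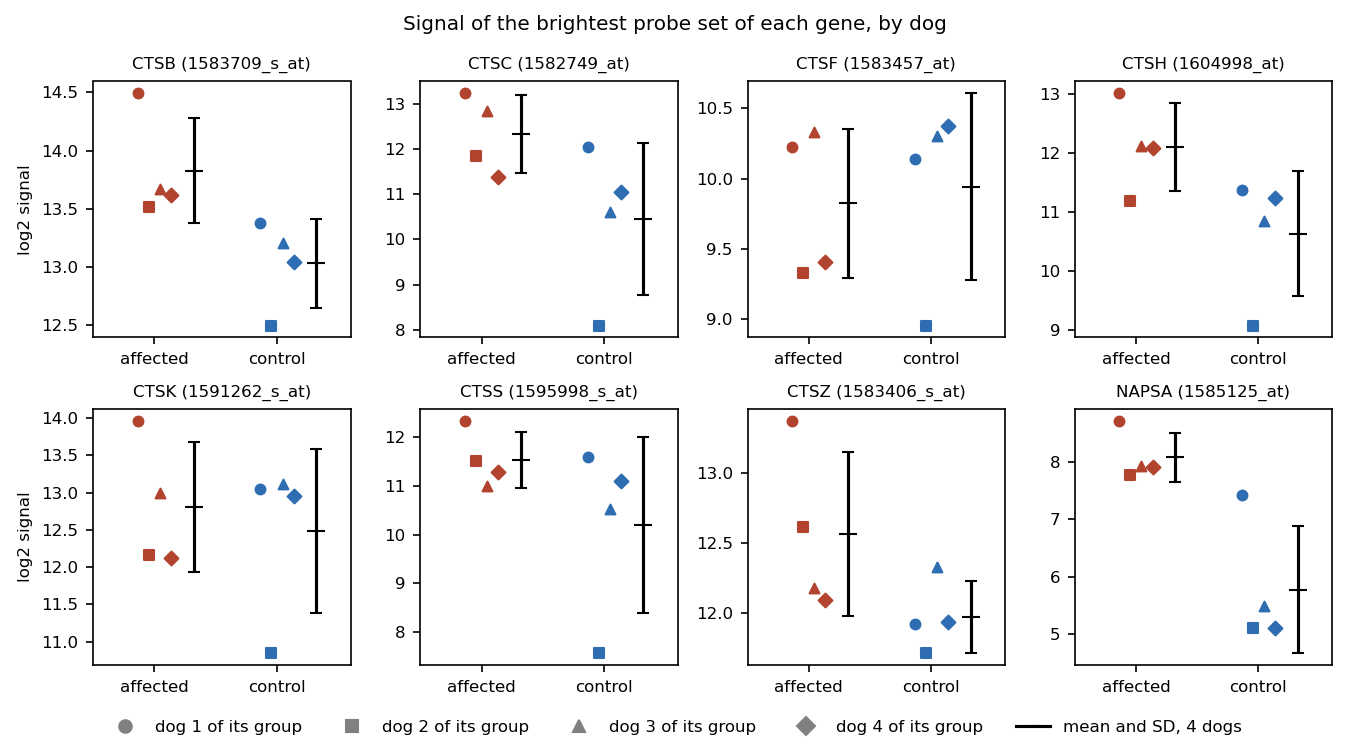
Log2 signal of the brightest probe set of each gene in every dog (vertical axes, 1 panel per gene with its own range), affected leaflets left and control leaflets right, with the mean and SD of 4 dogs as a black bar. CTSB and NAPSA show no overlap between the groups, and control 2 is the lowest control in every panel but that of NAPSA, where it shares the floor with control 4.

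CTSB is the most widely expressed of the cysteine cathepsins and cuts proteins both within the chain and from the carboxyl end. Its brightest probe set (1583709_s_at) had signals of 23078, 11704, 13072 and 12584 in affected 1 to 4, against 10645, 5779, 9423 and 8441 in control 1 to 4. Every affected dog lay above every control, by a narrow margin between affected 2 and control 1. This was a log2 difference of 0.80 ± 0.29 (SE, 4 dogs per group; limma adjusted p = 0.573), a factor of 1.74. It was 0.57 without affected 1, whose signal stood above the other affected dogs, and 0.62 without control 2.

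The second probe set of CTSB (1596254_at) was much dimmer, at 412, 335, 256 and 193 in affected leaflets and 239.8, 170.1, 253 and 247 in control leaflets. Its log2 difference was 0.35 ± 0.30 (SE; limma adjusted p = 0.76), and affected 4 lay among the controls. It was 0.18 without affected 1 and 0.55 without affected 4. Over the 8 arrays the log2 signals of the 2 probe sets had a Pearson correlation of 0.78, given as a description of probe sets that share their samples.

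CTSC, also called dipeptidyl peptidase I, removes dipeptides and activates the granule serine proteases of neutrophils, mast cells and cytotoxic lymphocytes. Its single probe set (1582749_at) had signals of 9688, 3704, 7392 and 2667 in affected leaflets, against 4209.8, 273, 1556 and 2128 in control leaflets. Control 1 lay above affected 2 and affected 4, so the groups overlapped. Affected minus control, the log2 signal differed by 1.88 ± 0.75 (SE; limma adjusted p = 0.604), a factor of 3.69. Its size depended on single controls, since the difference was 1.10 ± 0.48 without control 2 and 2.41 without control 1.

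Few markers of the cell types that use CTSC to activate granule proteases were measured. Of 9 neutrophil markers 2 were named on the array, and CXCR2, a chemokine receptor, differed by 0.35 ± 0.38 (log2, SE; limma adjusted p = 0.816). Of 8 mast cell markers 3 were named and only MS4A2, a chain of the IgE receptor, was tested, at 0.74 ± 0.37 (adjusted p = 0.66). Of 10 cytotoxic lymphocyte markers 4 were named and 3 tested, with NKG7, a granule protein, at -0.16 ± 0.52 (adjusted p = 0.949), CD3E of the T cell receptor complex at 0.54 ± 0.33 (adjusted p = 0.699) and the chemokine CCL5 at 1.13 ± 0.40 (adjusted p = 0.551). Their summed signal was 944 to 2315 in affected and 625 to 1228 in control leaflets. Their part in the CTSC difference was not tested.

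CTSH is an aminopeptidase that, in the lung, takes part in maturing surfactant proteins. Its single probe set (1604998_at) had signals of 8264, 2326, 4424 and 4356 in affected leaflets, against 2650.0, 541, 1842 and 2410.2 in control leaflets. Affected 1, 3 and 4 lay above every control, and affected 2 lay below control 1 and control 4. Log2 signal differed by 1.47 ± 0.53 (SE; limma adjusted p = 0.572), a factor of 2.76, and it was 0.95 ± 0.38 without control 2.

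CTSS, an elastin-cleaving cathepsin that stays active at neutral pH and processes the invariant chain in antigen-presenting cells, was measured by 5 probe sets, of which 4 were tested. The brightest (1595998_s_at) had signals of 5189, 2909, 2059.9 and 2502 in affected leaflets, against 3099.5, 188, 1473 and 2184 in control leaflets. Only affected 1 lay above control 1, the highest control, and control 2 stood far below all other dogs. The log2 difference was 1.34 ± 0.75 (SE; limma adjusted p = 0.683), with a 95% interval from -0.32 to 3.01. Without control 2 it was 0.46 ± 0.36, and without control 1 it was 1.81.

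The second probe set of CTSS (1582637_s_at) had signals of 2860.0, 1043, 4605 and 2325 in affected leaflets, against 3699.5, 9.6, 792 and 1676 in control leaflets. The value of control 2 was under the floor of 34.2 below which signals were set equal, so the log2 difference of 1.89 ± 1.20 (SE; limma adjusted p = 0.707) depends on that floor, and it was 0.48 without control 2. The third (1582636_at) had 2211, 513, 3342 and 1339 in affected leaflets and 3747, 234, 366 and 1221 in control leaflets, a difference of 0.92 ± 0.84 (adjusted p = 0.776). Control 1 was the highest of all dogs in this one, and control 2 the lowest. The difference was 0.34 without control 2 and 1.67 without control 1.

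The fourth tested probe set of CTSS (1595997_at) was dim, at 127, 288, 143 and 167 in affected leaflets, against 28.9, 184, 106 and 57.7 in control leaflets. It ordered the dogs differently from the others, with control 1 lowest and control 2 highest among the controls. Its difference was 1.12 ± 0.52 (SE; limma adjusted p = 0.644), against 0.72 without control 1. Without control 2 it rose to 1.53, where the differences of the other tested probe sets fell. Correlations of log2 signal between the 4 probe sets of CTSS over the 8 arrays ran from -0.51 to 0.92. The fifth (1596801_at) was below the filter on dim probe sets, at 19.7 to 115 in affected and 6.5 to 125 in control leaflets. All 4 tested probe sets of CTSS had a positive difference, whose size varied with the probe set and with control 2.

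CTSK, the collagenase of osteoclasts, can cut the triple helix of collagen. Its gene lies beside that of CTSS, with 1 annotated gene between them in the dog assembly UU_Cfam_GSD_1.0. The brightest probe set (1591262_s_at) had signals of 15964, 4565, 8132 and 4459 in affected leaflets, against 8492, 1835, 8879.9 and 7914 in control leaflets. Affected 1 was the highest of all dogs, while affected 2 and affected 4 lay below 3 of the 4 controls. Their mean log2 difference was 0.32 ± 0.57 (SE; limma adjusted p = 0.893; 95% interval from -0.94 to 1.57), and its direction turned to -0.23 without control 2, to -0.07 without affected 1 and to -0.09 with arrays weighted by their quality.

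The dimmer probe set of CTSK (1595087_s_at) had signals of 970, 548, 482 and 302 in affected leaflets, against 326, 236, 300.0 and 372 in control leaflets. Here affected 1, 2 and 3 lay above every control, with a log2 difference of 0.79 ± 0.35 (SE; limma adjusted p = 0.629). It was 0.50 ± 0.30 without affected 1 and 1.06 without affected 4. The correlation of the 2 probe sets over the 8 arrays was 0.66. Osteoclast markers were few, with 3 of 7 named on the array and a summed signal of 357 to 2414 in affected and 254 to 457 in control leaflets. MMP9, a gelatinase that macrophages also make, differed by 2.54 ± 0.92 (adjusted p = 0.572) and TNFRSF11A, the receptor for the osteoclast factor RANKL, by 0.58 ± 0.36 (adjusted p = 0.705).

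CTSZ, a carboxypeptidase also known as cathepsin X, was measured by 6 probe sets, of which 4 were tested. The brightest (1583406_s_at) had signals of 10623, 6282, 4633 and 4373 in affected leaflets, against 3871, 3353, 5144 and 3917 in control leaflets. Affected 1 and affected 2 lay above every control, and affected 3 and 4 lay below control 3. The log2 difference was 0.59 ± 0.31 (SE; limma adjusted p = 0.666), and it was 0.32 without affected 1. Probe set 1595015_s_at had signals of 9756, 5793, 4555 and 4070.4 in affected leaflets and 3708, 2949, 4861 and 4202 in control leaflets, and 1589646_s_at had 9779, 5733, 4141 and 3983 in affected leaflets and 3599.6, 2842, 4649 and 3240.2 in control leaflets. Their differences were 0.56 ± 0.31 and 0.65 ± 0.32, in the same order of dogs as the brightest among the affected, and were 0.30 and 0.37 without affected 1. The dimmer 1599209_at gave a difference of 0.13 ± 0.24, with 2339, 1441, 2046 and 1638 in affected leaflets and 1801, 1381, 1677 and 1875 in control leaflets. Without affected 1 this difference was 0.015. Correlations among these 4 ran from 0.53 to 0.996. The untested 1595014_at was at 14.1 to 269.6 in affected and 27.1 to 69.3 in control leaflets, and the untested 1595016_at was at 21 to 27.5 in affected and 32 to 111 in control leaflets.

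CTSF, a lysosomal cysteine cathepsin with a long propeptide, had lower mean signals in affected leaflets in all 4 of its probe sets. The brightest (1583457_at) had signals of 1200.0, 643, 1289 and 678 in affected leaflets, against 1126, 496, 1266 and 1327 in control leaflets. The affected dogs lay within the range of the controls. The log2 difference was -0.12 ± 0.38 (SE; limma adjusted p = 0.949; 95% interval from -0.96 to 0.72). Its sign was not stable, since the value was 0.05 without affected 2, 0.02 without affected 4, 0.03 without control 4 and 0.0026 without control 3.

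Probe set 1590162_s_at of CTSF had signals of 366, 383, 1518 and 651 in affected leaflets, against 1039, 601, 952 and 1337 in control leaflets. Affected 3 was the highest of all dogs and affected 1 and 2 were the lowest, and the difference was -0.63 ± 0.45 (SE; limma adjusted p = 0.728). It was -1.07 without affected 3 and -0.38 without affected 1. Probe set 1604295_at had signals of 446.5, 284, 1181 and 575 in affected leaflets and 823, 444.5, 746 and 1117 in control leaflets, a difference of -0.46 ± 0.44, again with affected 3 highest of all dogs. This difference was -0.15 without affected 2 and -0.83 without affected 3. The dimmest, 1590161_at, had 259, 249, 459.8 and 342 in affected leaflets and 364, 231, 384 and 409 in control leaflets, a difference of -0.10 ± 0.30. Correlations among the 4 probe sets of CTSF ran from 0.56 to 0.95.

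NAPSA is known from the lung, where it helps to mature surfactant protein B, and from the kidney. Its brightest probe set (1585125_at) had signals of 420, 219, 243 and 241 in affected leaflets, against 171, 33.5, 44.7 and 24.5 in control leaflets. Every affected dog lay above every control, and control 1 stood above the other controls, of which 2 were at the floor. The log2 difference was 2.31 ± 0.52 (SE; limma adjusted p = 0.33), a factor of 4.96, and this was the member with the smallest p. Its size depends on the floor, being 1.25 with a floor at the 40th percentile of all signals and 2.44 with no floor. It ranged from 2.08 without control 2 to 2.83 without control 1. The probe set passed the filter mainly through the affected dogs, since all 4 of them but only 1 control lay above the 40th percentile of their arrays.

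A second probe set of NAPSA (1591776_at) pointed the other way. It had signals of 25.9, 33.6, 26.2 and 107 in affected leaflets, against 149, 186, 138 and 21.3 in control leaflets, with 3 affected dogs and 1 control at the floor. The log2 difference was -1.23 ± 0.61 (SE; limma adjusted p = 0.66). Leaving out control 4 gave -1.79, and raising all values under the 40th percentile to that level gave -0.46. It passed the filter mainly through the controls, with 1 affected dog and 3 controls above the 40th percentile. The third probe set (1585126_s_at) was untested, at 6.5 to 39.4 in affected and 3.8 to 7.9 in control leaflets. The correlation of the 2 tested probe sets over the 8 arrays was -0.41, so the direction for NAPSA rests on 1 of 3 probe sets.

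Of 7 lung epithelium markers, SFTPC, SCGB1A1 and EPCAM were named on the array and none was bright enough to be tested. Their summed signal was 119 to 137 in affected and 127 to 147 in control leaflets, where 3 values at the floor of 34.2 would be the least possible. The B cell marker PAX5, the only 1 of 7 named, was at the floor in all 8 dogs.

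**Figure D2:**
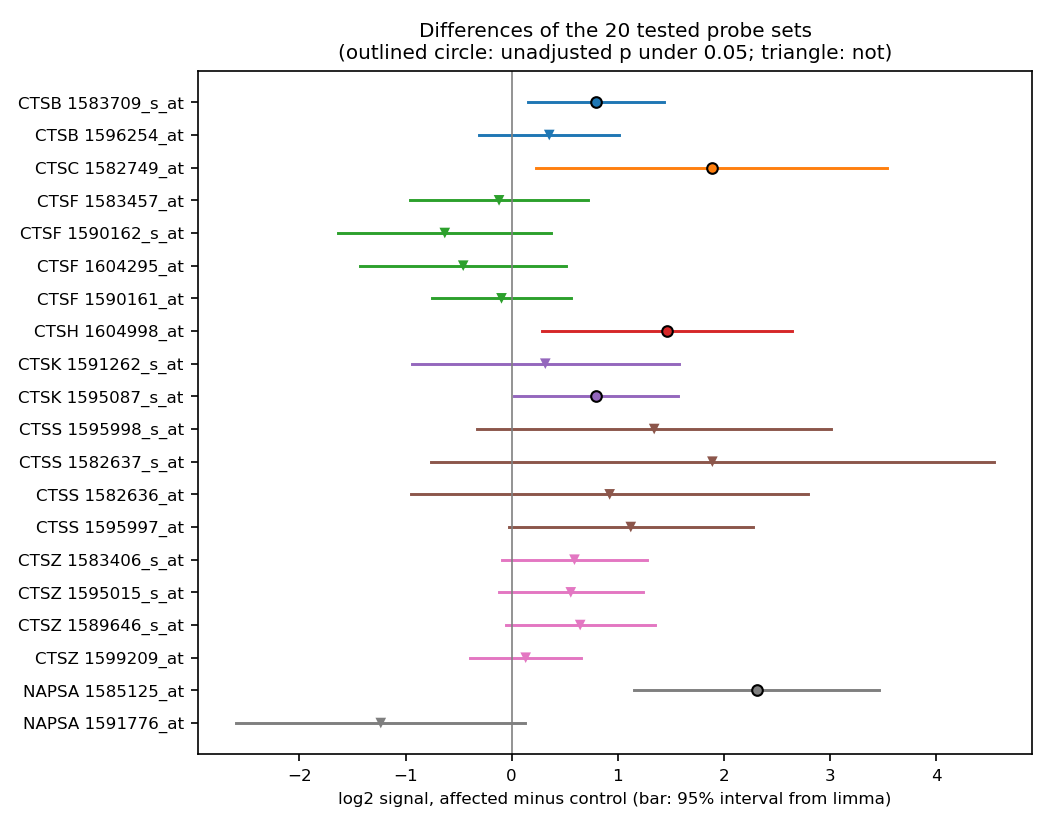
Log2 difference, affected minus control, of the 20 tested probe sets (horizontal axis) with the 95% interval from limma, coloured by gene. The 4 probe sets of CTSF lie left of 0, the 2 of NAPSA lie on opposite sides, and 5 intervals lie wholly above 0.

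Affected 1, the Lhasa apso, had the highest signal of the affected dogs for 7 of the 8 genes by the brightest probe set, CTSF being the exception. Control 2 had the lowest signal of the controls for 7 of the 8, the exception being NAPSA, where control 2 and control 4 were tied at the floor. The same pair of dogs stood at the ends of the macrophage markers, with a mean log2 signal of 10.97 in affected 1 and 6.45 in control 2. The other affected dogs had 9.76, 10.49 and 10.32 (affected 2, 3 and 4), and the other controls 9.58, 8.35 and 8.72 (control 1, 3 and 4). This was not particular to macrophage markers. Affected 1 was also highest and control 2 lowest for endothelial markers (11.30 and 9.85) and for 4 lists described below. These were cathepsin inhibitors (11.17 and 8.93), other lysosomal hydrolases (10.47 and 9.23), lysosomal membrane genes (11.42 and 10.60) and class II partners (11.38 and 8.38). The pair did not stand at both ends for interstitial, cardiac muscle, sorting or matrix genes. The part of any of these lists in the cathepsin differences was not tested. Without control 2, 14 of 19 tested probe sets were higher, and 5 were higher at an unadjusted p under 0.05 in limma, beside 3.69% of all probe sets in that fit.

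**Figure D3:**
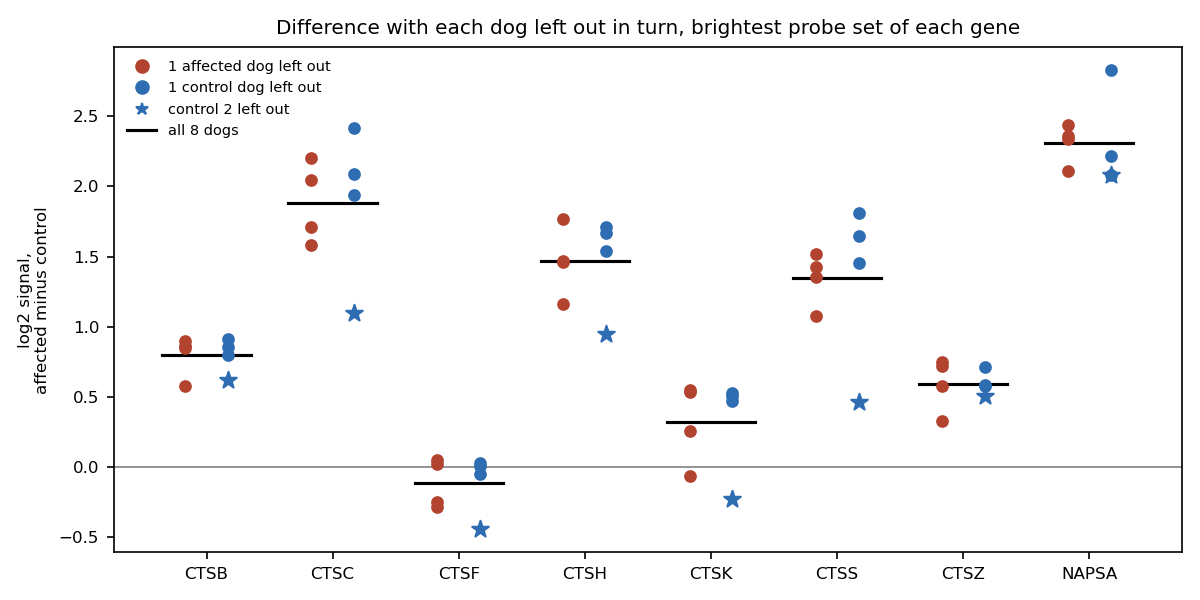
Log2 difference, affected minus control, of the brightest probe set of each gene (vertical axis) with 1 affected or 1 control dog left out, and with all 8 dogs as a black line. Without control 2 CTSC is at 1.10 and CTSS at 0.46, CTSF and CTSK cross 0 without single dogs, and CTSB, CTSC, CTSH, CTSS, CTSZ and NAPSA stay above 0.

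Among themselves, the brightest probe sets of the 7 genes other than CTSF had Pearson correlations of log2 signal over the 8 arrays from 0.42 (CTSK with NAPSA) to 0.94 (CTSB with CTSH). Those of CTSF with the other 7 genes ran from 0.078 (NAPSA) to 0.89 (CTSK). All pairs share the same arrays and the same difference between the groups, and the values are a description.

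The genes with the pattern most like CTSB, by Pearson correlation of log2 signal over the 8 arrays among 5437 other genes, were CSK, a kinase that restrains Src kinases (0.98), SMAP2 (0.98), the class I gene DLA88 (0.97), the lysosomal membrane protein and macrophage marker CD68 (0.97) and TMEM183A (0.97). Those most like CTSS were CD86, a costimulatory molecule of antigen-presenting cells (0.98), WBP1L (0.98), CSF1R, the receptor for the macrophage growth factor (0.97), the class II gene DLA-DRA (0.96) and the chemokine CCL14 (0.96). Those most like NAPSA were MCM3AP (0.96), the ephrin receptor EPHA3 (0.95), the lipopolysaccharide receptor CD14 (0.95), the Fc receptor chain FCER1G (0.94) and MPEG1, a pore-forming protein of macrophages (0.94). These are the highest of many correlations over few arrays that share the difference between the groups, and they are given as a description.

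Of 21 listed inhibitors of cathepsins, or of proteases in general, 7 were named on the array and 4 tested. All 4 had higher mean signals in affected leaflets, with a median log2 difference of 0.95, and 3 had an unadjusted p under 0.05 in limma, beside 4.82% of all genes. CSTB, a cystatin of the cytosol that blocks cysteine cathepsins, differed by 1.01 ± 0.27 (SE; adjusted p = 0.41), with every affected dog above every control. SERPINA1, an inhibitor of neutrophil elastase, differed by 3.18 ± 0.74 (adjusted p = 0.337) and SERPINB6 by 0.89 ± 0.36 (adjusted p = 0.61), while SERPINB1, which inhibits neutrophil proteases, was at 0.03 ± 0.25. CST3, the main secreted cystatin, was not named on the array. Without control 2, 3 of 4 were at that level and the median was 0.92.

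Other genes of the lysosome were counted by their roles. Of 22 tested hydrolases and proteases other than cathepsins, 16 were higher and 6 lower with a median of 0.26, and at an unadjusted p under 0.05 in limma 1 was higher and 1 lower, beside 4.82% and 3.95% of all genes. GUSB, which degrades glycosaminoglycans, differed by 0.95 ± 0.35 (SE; adjusted p = 0.581), the sialidase NEU1, which forms a complex with cathepsin A, by -0.66 ± 0.28 (adjusted p = 0.619) and GGH, which trims folates, by 0.73 ± 0.39 (adjusted p = 0.67). Of 21 tested genes of the lysosomal membrane and its proton pump, 15 were higher and 6 lower with a median of 0.22, and 3 were higher at that level, beside 4.82% of all genes. These 3 were CD68 at 2.47 ± 0.77 (adjusted p = 0.509), the metal transporter SLC11A1 at 0.86 ± 0.30 (adjusted p = 0.549) and LAPTM5 at 1.86 ± 0.65 (adjusted p = 0.549), all of which are best known from macrophages and other leukocytes. Without control 2 the medians of these lists were 0.11 and 0.12. CD68 and LAPTM5 are also among the listed macrophage markers, so the lysosomal membrane list and the macrophage list share members.

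Sorting receptors of the lysosome and transcription factors of lysosomal genes had a median of 0.03 over 13 tested genes, with 7 higher and 6 lower. The sorting receptor SORT1 differed by 0.69 ± 0.28 (log2, SE; limma adjusted p = 0.61), the factor TFEC, a relative of TFEB, by 1.58 ± 0.65 (adjusted p = 0.614) and GNPTAB, which makes the mannose 6-phosphate tag, by -0.36 ± 0.24 (adjusted p = 0.717). TFEB itself was not named on the array. 2 of these 13 were higher at an unadjusted p under 0.05, beside 4.82% of all genes, and 1 was without control 2.

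Among partners of cathepsins in class II presentation, 5 of 16 listed genes were tested, 4 were higher and the median was 0.99. IFI30, a lysosomal thiol reductase, differed by 0.99 ± 0.41 (log2, SE; limma adjusted p = 0.614), DLA-DRA by 1.88 ± 0.95 (adjusted p = 0.666) and DLA-DQA1 by 1.79 ± 0.96 (adjusted p = 0.672). LGMN, the asparagine endopeptidase that activates several cathepsins, was at 0.18 ± 0.34 and is also on the list of hydrolases and proteases. The invariant chain gene CD74, a substrate of CTSS, was not named on the array. 1 of the 5 had an unadjusted p under 0.05, beside 4.82% of all genes, and 0 did without control 2, where the median was 0.56.

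Matrix proteins that cathepsins can cleave had a median of 0.16 over 15 tested genes, with 10 higher and 5 lower, and 2 were higher at an unadjusted p under 0.05, beside 4.82% of all genes. The basement membrane collagens COL4A1 and COL4A2 differed by 0.88 ± 0.28 (log2, SE; limma adjusted p = 0.521) and 0.76 ± 0.27 (adjusted p = 0.571), and LAMC1, a laminin chain, by -0.64 ± 0.31 (adjusted p = 0.658). Without control 2 the median turned to -0.15, with 5 higher and 10 lower. Of the other aspartic proteases, BACE1 was at 0.25 ± 0.25 (adjusted p = 0.793) and the presenilin PSEN2 at -0.40 ± 0.29 (adjusted p = 0.728).

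**Figure D4:**
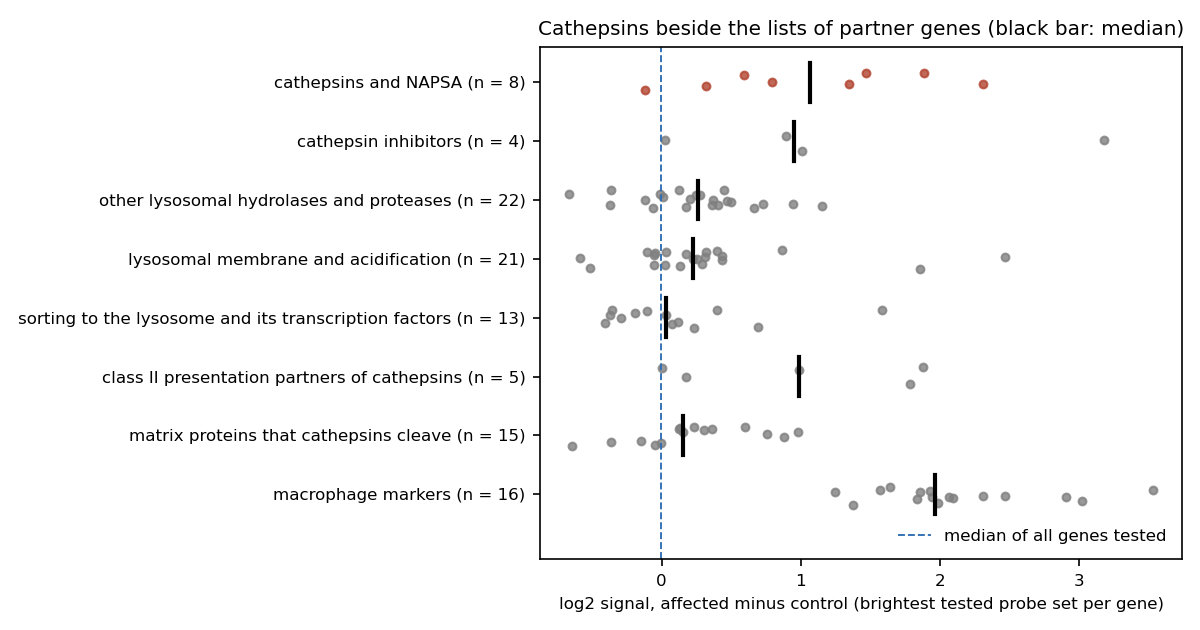
Log2 difference, affected minus control, of the brightest tested probe set of each gene (horizontal axis) for the cathepsins and NAPSA and for lists of partner genes, with each list's median as a black bar and the median of all genes tested as a dashed line. The medians with all dogs are 1.07 for the 8 genes and 1.97 for the 16 macrophage markers. Those for other lysosomal hydrolases and for the lysosomal membrane are 0.26 and 0.22.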

How the data were processed

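The authors deposited MAS5 signals, 1 linear intensity per probe set and array, per the submitters' processing notes. The MAS5 version and its detection calls are not given in these sources. The 2% trimmed mean was 500.1 on all 8 arrays, so the authors' values were already scaled, and median signals ranged from 124 to 191.7. Signals were rescaled to 1 trimmed mean, set to a floor of 34.2 (the 20th percentile) where lower, and put on the log2 scale. Testing needed 4 of 8 arrays above their own 40th percentile. limma 3.58.1 (R 4.3.3; lmFit, eBayes with an intensity trend, two-sided, Benjamini-Hochberg over 14705 probe sets, threshold 0.05) gave differences, affected minus control, with SE from 4 dogs per group. The labels call the dogs biological replicates, and array correlations were 0.864 to 0.968. The number of arrays limits the precision.

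Gene names came from the platform annotation, and all 8 gene identifiers were found in RefSeq's dog table. Suffix _s_at marks probe sets that can match several transcripts. The brightest probe set stood for a gene. All member probe sets were named, with the 3 smallest p of each list and the 5 most alike genes for CTSB, CTSS and NAPSA. NKG7, SERPINB1 and LGMN, and the genes named as absent, at the floor or as examples of tissue markers, were named after their values were seen. Members and lists were chosen with earlier results of these data known. Alternatives were other scaling, filters, floors, variance models, a replicate block, and leaving out each dog; lists without control 2 were added after seeing the data. No sequences were used here.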

Additional observations from a re-analysis of the deposited data

Results flagged for a closer look

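In 7 of 40 groups of 4 dogs (20 tested probe sets in both groups), 1 dog stood apart from the other 3 by a gap test. Chance passes it in about 1 of 20 independent groups, but these 40 share the same 8 dogs. Values set to the floor can also make a gap pass. The share over all tested probe sets was not computed, so no excess is read from the count. Affected 1 was high for CTSB 1583709_s_at at a log2 signal of 14.49, where the next affected dog was at 13.67, and for NAPSA 1585125_at at 8.72, with the next at 7.93. Control 2 was low for CTSB 1596254_at at 7.41, for CTSF 1583457_at at 8.95 and for CTSK 1591262_s_at at 10.84, where the next controls were at 7.91, 10.14 and 12.95. Control 1 was high for NAPSA 1585125_at at 7.42, with the next control at 5.48 and the other 2 at the floor. Affected 4 was high for NAPSA 1591776_at at 6.75, where the other 3 affected dogs were at the floor of 5.10.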

How the results depend on the processing

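No cathepsin or NAPSA probe set passed an adjusted p of 0.05 under any of the 12 other settings or with any dog left out; the closest was NAPSA 1585125_at with the replicate block (adjusted p = 0.0836). Over the 20 tested probe sets, 235 of 236 values under other settings and 148 of 156 with a dog left out kept their direction. The exceptions were CTSK 1591262_s_at, at -0.092 with array weights and from -0.23 to 0.55 with a dog left out, CTSF 1583457_at, from -0.45 to 0.046, and CTSF 1590161_at, from -0.28 to 0.021; the cause was not tested. The members higher at an unadjusted p under 0.05 numbered 5, 3 with no filter and 2 to 7 with a dog left out (2 without affected 1); those lower numbered 0, 1 with a floor at the 40th percentile, 1 with array weights and 0 to 1 with a dog left out. Over all probe sets 0 were called higher, 4 with the replicate block (SAA1, UPP1, S100P and 1588714_at) and 0 to 1 with a dog left out (1588714_at without control 1); 0 were called lower in all of these. The labels do not say whether the replicate numbers pair the dogs. Correlations of same-numbered deviations were -0.12, 0.41, 0.02 and -0.01, and 2 of 8 dogs correlated best with their own number. So few dogs cannot settle whether a pairing exists. With the block, 7 members were higher at an unadjusted p under 0.05 in limma. For the member counts under other settings the share over all probe sets is not given here. No excess is read from those counts. Signals near the floor limit NAPSA and the dim probe sets of CTSS and CTSZ.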

Other observations

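By the brightest probe set, both Miniature poodles (affected 2 and 4) lay below the Lhasa apso and the Dachshund (affected 1 and 3) for 6 of the 8 genes, namely CTSB, CTSC, CTSF, CTSH, CTSK and NAPSA, while the same order held for 12.7% of all 5438 genes tested. For the collagenase CTSK the poodles had signals of 4565 and 4459, against 15964 in the Lhasa apso and 8132 in the Dachshund. For CTSF they had 643 and 678, against 1200.0 and 1289. The order failed in every other tested probe set of CTSB, CTSF, CTSK and NAPSA, while CTSC and CTSH had 1 probe set each. In CTSK 1595087_s_at, affected 2 was at 548 and affected 3 at 482. In NAPSA 1585125_at, affected 4 at 241 lay just below affected 3 at 243. The order was noticed in the data, the members share the same 4 dogs, breed is nested in these dogs, and no test was made. Mean log2 signal of the 16 macrophage markers was 9.76 and 10.32 in the poodles, against 10.97 and 10.49 in the other affected dogs, and its part in the order was not tested.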
